A study of Mus musculus with 15 samples.

Results

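Pixels holding transcripts of the lining of the body cavity and of the mesenchyme beneath it were picked from 3 spatial libraries of mouse embryo sections. A pixel was taken as tissue if its total reached 0.1 times the 95th percentile of totals in that library. A tissue pixel was a member when Wt1, Upk3b, Osr1 and Tcf21 together gave at least 2 counts. This selected 305 of 4743 tissue pixels in the 3 libraries, against 17046 tissue pixels in all 11 transcript libraries of the series. There were 40 members among 1704 tissue pixels in E11 25 µm replicate 1 (2.35%, 95% Wilson interval 1.73 to 3.18%), 75 of 1504 in E11 25 µm replicate 2 (4.99%, 4.0 to 6.21%) and 190 of 1535 in E12 50 µm replicate 1 (12.4%, 10.8 to 14.1%).

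The study mapped transcripts in frozen sections of whole mouse embryos by deterministic barcoding in tissue, in which barcodes are delivered through crossed microfluidic channels so that each crossing is a pixel of known position. The sections used here came from embryonic day 11 (E11, 2 libraries with pixels 25 µm wide) and embryonic day 12 (E12, 1 library with pixels 50 µm wide). The labels give no strain, sex, genotype or treatment, and do not say which embryo or which body region a section came from. Pixel classes were compared within each library, so p-values measure how the difference between classes varies between these libraries. That variation may be technical, and stage and pixel width can enter it as well. Stage and pixel width cannot be told apart, because the E12 section is both the later one and the one with wider pixels. Total counts in tissue pixels were 5066401, 7677938 and 6499879 in the 3 libraries. The median member held 2638, 4746 and 4938.5 counts, against 2520, 4273 and 3356 in the other tissue pixels, so members were deeper than the rest mainly at E12. A pixel is a small area that can hold several cells or parts of cells, so fewer cells of a type and less RNA per cell cannot be told apart.

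The coelom is the cavity around heart, lungs and gut, and its wall is covered by a simple epithelium, the future mesothelium. Cells of this epithelium leave it and enter the tissue beneath, where they give rise to epicardial derivatives, liver stellate cells and gonadal cells. Next to it, the intermediate mesoderm forms the nephric duct, the kidney and the gonad. Wt1 encodes a zinc-finger transcription factor of the coelomic epithelium, kidney and gonad, and Upk3b a uroplakin, a membrane protein of mesothelium and urothelium. Osr1 encodes a zinc-finger factor of intermediate and lateral plate mesoderm, and Tcf21 a basic helix-loop-helix factor of the mesenchyme around visceral organs and of the epicardium.

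RefSeq promoter windows (GRCm38.p6) were looked up for the 4 rule genes and for the 6 mesothelial genes that later passed the test, and 2 of these 10 genes had a window of 250 bases ending at the start site that lay outside every GENCODE M21 transcript and every RefSeq gene. They are shown because only these 2 had such a window: 6 other genes had windows inside a transcript and 2 had no entry. Upk3b is a rule gene, and Aldh1a2 had the lowest adjusted p of the mesothelial genes outside the rule. The windows are chr5:136038246-136038495 (plus strand) for Upk3b and chr9:71215539-71215788 (plus strand) for Aldh1a2. Capitals mark matches, on either strand, to any of 3 motifs, which do not overlap here. AGATAA is a site of the zinc-finger family that includes Gata5 and Gata6. GGAATG is a site of the TEAD family. CAGCTG is an E-box, the kind of site bound by basic helix-loop-helix factors such as Tcf21.
Upk3b: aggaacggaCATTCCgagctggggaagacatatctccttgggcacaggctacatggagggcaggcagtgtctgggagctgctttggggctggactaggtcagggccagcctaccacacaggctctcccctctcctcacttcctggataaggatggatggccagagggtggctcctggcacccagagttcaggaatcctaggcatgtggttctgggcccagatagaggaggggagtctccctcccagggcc
Aldh1a2: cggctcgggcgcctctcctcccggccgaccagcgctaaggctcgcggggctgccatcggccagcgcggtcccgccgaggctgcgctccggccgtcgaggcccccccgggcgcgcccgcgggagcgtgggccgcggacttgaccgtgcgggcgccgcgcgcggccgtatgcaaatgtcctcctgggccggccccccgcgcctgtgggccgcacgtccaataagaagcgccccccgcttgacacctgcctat
The only match was 1 GGAATG motif on the reverse strand of the Upk3b window, whose upstream edge lies 241 bases before the start. Over 32851 promoter windows of the same length, 12.6% held GGAATG, 9.99% held AGATAA and 13.0% held CAGCTG, so 1 match in 2 windows is a description of these letters and no more. G and C made up 60.8% of the Upk3b window and 77.6% of the Aldh1a2 window.

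The values that chose the members are given as a description. Wt1 lies at chr2:105126529-105173616, Upk3b at chr5:136038496-136046487, Osr1 at chr12:9570116-9581500 and Tcf21 at chr10:22817281-22820174 (GENCODE M21, GRCm38). In that annotation Osr1 and Tcf21 each overlap a gene on the other strand, and whether counting used strand is not given in the sources used here. Over the 3 libraries Wt1 gave 617 tissue counts, 333 of them in members. Osr1 gave 506 and 301, Upk3b 243 and 150, and Tcf21 128 and 66. In counts scaled to a total of 1000000 per class (CPM), Wt1 stood at 369, 296 and 163 in members and 13.9, 14.5 and 20.2 in other tissue, in the order E11 replicate 1, E11 replicate 2 and E12. Osr1 stood at 203, 77.9 and 227 in members, against 4.44, 4.94 and 27.2 elsewhere. The rule genes were thus sparse: 181 members held exactly 2 counts and 124 held 3 or more, while 644 tissue pixels lay just outside the rule with 1 count.

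Members differed in which of the genes they held. Counts came from 1 rule gene in 149 members, from 2 in 136, from 3 in 20 and from all 4 in none. Wt1 or Upk3b without Osr1 or Tcf21 was seen in 117 members (called lining-only here), Osr1 or Tcf21 without Wt1 or Upk3b in 87 (mesenchyme-only), and both kinds in 101. These names stand for the rule genes held and not for a tissue shown by other genes. The balance was 26 lining-only to 8 mesenchyme-only pixels in E11 replicate 1, 39 to 7 in E11 replicate 2, and 52 to 72 at E12. At E12 Osr1 was the most frequent of the 4, present in 120 of 190 members, whereas Wt1 was the most frequent in E11 replicate 1 (25 of 40) and E11 replicate 2 (59 of 75).

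Members lay beside each other more often than their share of tissue. The edge neighbours in tissue were listed for each member, so a pixel touching several members was counted several times. The 95% Wilson intervals given here cover counting error only and take such repeats as separate pixels. Of the listed neighbours, 27.0% were members in E11 replicate 2 (22 to 32.6%) against 4.99% of tissue. The share was 27.2% (24.1 to 30.5%) against 12.4% at E12, and 7.84% (4.54 to 13.2%) against 2.35% in E11 replicate 1. The largest connected patch held 12, 19 and 3 pixels in that order. In E11 replicate 2, 39 of 75 members (52.0%) fell within 3 grid columns of their median column, where 18.2% of tissue pixels lay, and formed a band down the section. In E11 replicate 1 the same measure was 30.0% against 17.5%, and at E12 33.7% against 19.2%. No test was made on pixels, which are not replicates.

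**Figure D1:**
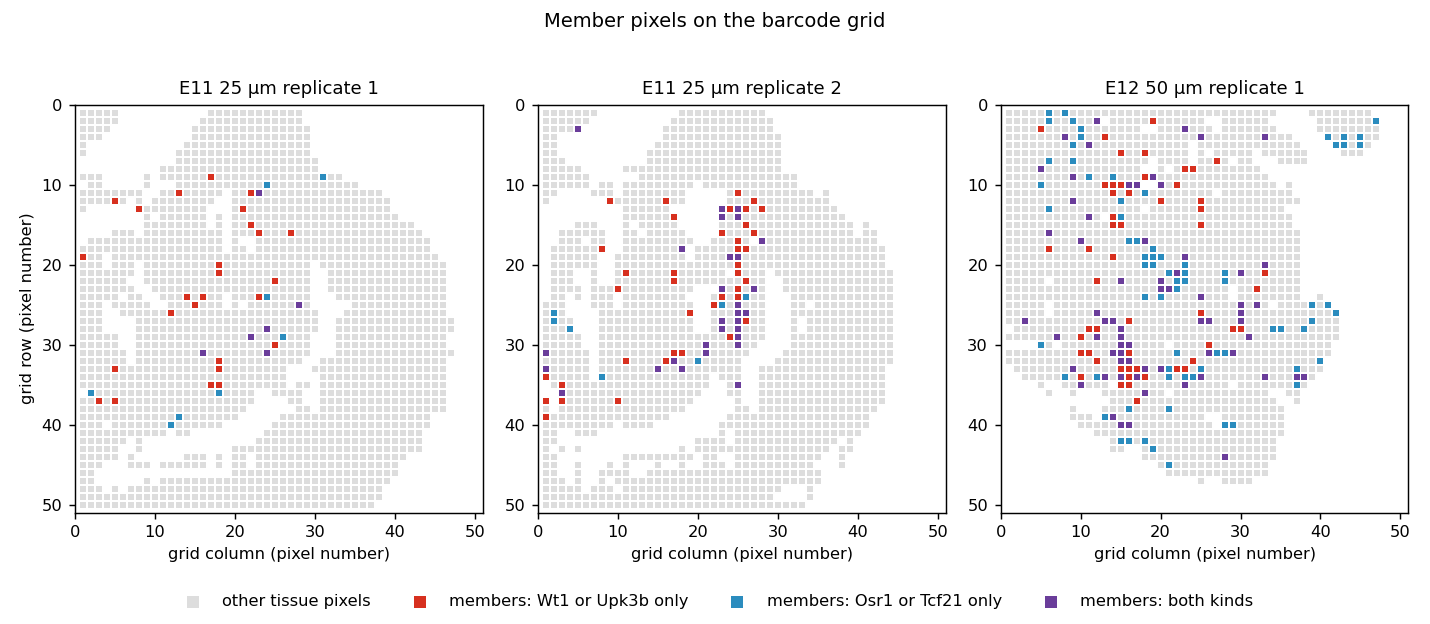
Tissue pixels of the 3 libraries by grid row and grid column (pixel numbers), with members coloured by the rule genes they held. The 75 members of E11 25 µm replicate 2 include a band of adjoining pixels, while the 40 members of replicate 1 lie mostly apart, with a largest patch of 3.

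Whether the rule genes share pixels was asked by leaving each gene out of the rule and measuring it in the pixels chosen by the other 3. Wt1, Upk3b and Tcf21 were higher in such pixels, and Osr1 did not pass the test. Wt1 stood at 163, 143 and 69.9 CPM in pixels chosen without it and at 20, 25.9 and 41.5 CPM in the other tissue pixels, higher in all 3 libraries (log2 fold change 1.69, SE 0.33, adjusted p = 0.000232 by edgeR's quasi-likelihood test with Benjamini-Hochberg adjustment over all genes). Upk3b stood at 28.6, 43.9 and 29.4 CPM against 11.6, 7.88 and 15.0, also higher in all 3 (1.48, SE 0.42, adjusted p = 0.0337), although the first value rests on 2 counts. Tcf21 stood at 0, 32.9 and 22.6 CPM against 3.22, 5.72 and 6.57 (1.92, SE 0.50, adjusted p = 0.0115), higher in 2 of 3 libraries; the 0 in E11 replicate 1 allows up to 29.3 CPM. Osr1 stood at 0, 22.2 and 51.4 CPM against 8.8, 8.01 and 61.7, so it was higher in 1 library only (log2 fold change 0.13, SE 0.43, adjusted p = 1.0); its 0 allows up to 44.5 CPM. The fit without E11 replicate 2 left none of the 4 genes past the threshold (adjusted p = 1.0 each) and turned Osr1 to -0.33, and Tcf21 also missed it without E11 replicate 1 (0.19) or E12 (0.24), as did Upk3b without E12 (0.0971).

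**Figure D2:**
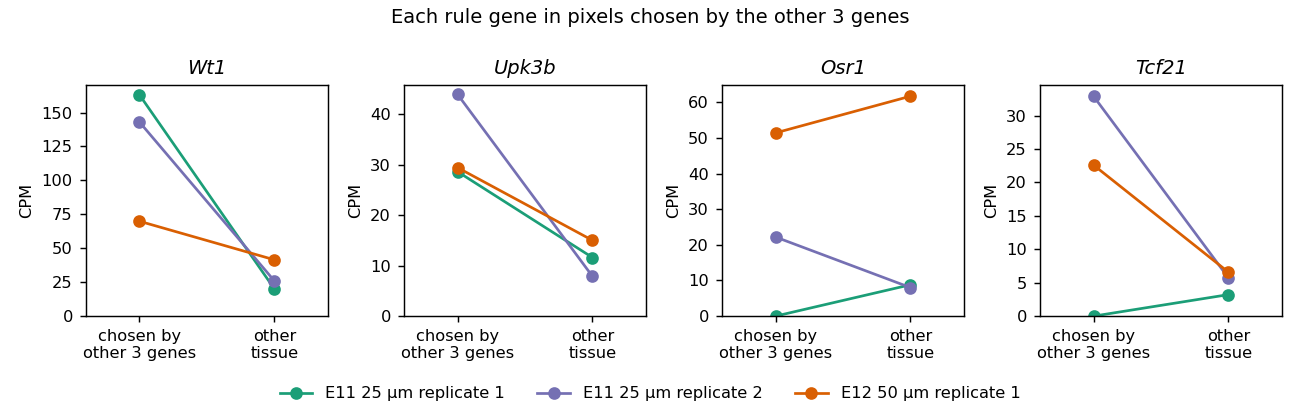
CPM of each rule gene in pixels chosen by the other 3 genes and in the other tissue pixels, 1 line per library. Wt1 and Upk3b fall from left to right in all 3 libraries, Tcf21 in 2, and Osr1 in E11 25 µm replicate 2 only.

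Counts were then summed over members and over other tissue pixels in each library, and all genes were tested with the library as a block. Genes of the mesothelial, mesenchymal and matrix lists were among those higher in members, and genes of the neural, cartilage and liver lists among those lower. Of 13015 genes tested, 100 were higher in members (0.768%, among them the 4 rule genes, which the rule itself raised) and 102 were lower (0.784%), at an adjusted p of 0.05. The unadjusted p was under 0.05 for 930 genes. The count rests on E11 replicate 2: without it 10 genes passed, without E11 replicate 1 57, and without E12 208. DESeq2 called 48 genes, pixels below their library's median total gave 5 and the deeper pixels 211, and without the block 3 passed.

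The mesothelial list held 16 genes, of which 13 passed the filter on low counts, 6 were higher in members and 0 lower. Its median log2 fold change was 1.01, where the median of all genes was -0.05. Aldh1a2, the enzyme that makes retinoic acid in the coelomic lining, stood at 36.9, 72.7 and 56.6 CPM in members and at 18.8, 16.7 and 18.1 CPM in other tissue, with no overlap between the classes (log2 fold change 1.67, SE 0.30, adjusted p = 1.12e-05). The lowest member value, in E11 replicate 1, rests on 4 counts. Bnc1, a zinc-finger factor of mesothelium and stratified epithelium, stood at 46.1, 31.1 and 4.56 CPM against 3.23, 4.11 and 3.89 (2.17, SE 0.56, adjusted p = 0.0103). Both E11 libraries were far above the rest of the tissue for Bnc1, on 5 and 12 member counts, while the E12 value, on 5, was close to it. Krt18, a keratin of simple epithelia, stood at 203, 132 and 32.9 CPM against 82.5, 30.4 and 27.2 (1.17, SE 0.23, adjusted p = 0.000141). Muc16, a mucin of the mesothelial surface, gave 2, 4 and 9 counts in members (3.08, SE 0.77, adjusted p = 0.00665). The filter on low counts works on CPM, which the small member sums reach on few counts. Muc16 could thus enter the test through the members alone, and its place among the 6 is a description. Lrrn4, a leucine-rich repeat membrane protein, gave 3, 8 and 3 counts (2.36, SE 0.67, adjusted p = 0.0335). Bnc2, a relative of Bnc1, was higher in 2 of 3 libraries (1.06, SE 0.31, adjusted p = 0.037). The epicardial and mesothelial factor Tbx18 missed the threshold (1.01, SE 0.34, adjusted p = 0.122), and Msln, Upk1b and Cldn15, with 1, 7 and 4 counts in members, were too sparse to test. The number of mesothelial genes called was 0 without E11 replicate 2, 1 without E11 replicate 1, 5 without E12 and 1 with DESeq2, and the list's median stayed between 0.58 and 1.57 in these fits. It also turned on the rule genes: 0 of 11 tested mesothelial genes passed when the rule left out Wt1, 2 of 12 without Upk3b, and 4 of 13 without Osr1 or without Tcf21, with medians of 0.91 to 1.13.

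Few genes of the urogenital lists passed the test. Of 21 nephric duct and kidney progenitor genes, 14 were tested (median 0.44) and 1 was higher in members: Itga8, an integrin subunit of kidney and visceral mesenchyme, at 55.4, 49.3 and 90.3 CPM against 24.2, 22.8 and 51.1 (log2 fold change 0.91, SE 0.27, adjusted p = 0.0421; -0.02 in the shallower pixels). Pax2 and Pax8, which define the nephric duct, gave 7 and 12 counts in all members and were not tested. Lhx1 of the same lineage had a log2 fold change of 0.17 (SE 0.44, adjusted p = 1.0). Of 11 gonad and adrenal genes, 6 were tested, 0 were higher and 1, Sox9, a factor of cartilage as well as testis, was lower. Nr5a1, which defines the gonadal and adrenal primordium, gave 3 counts in members, and Gata4 had a log2 fold change of 1.31 (SE 0.42, adjusted p = 0.0994). Of 7 germ cell genes 4 were tested and 0 passed, with a median of 1.37. Together the germ cell genes stood at 36.9, 36.3 and 43.8 CPM in members, on 4, 14 and 48 counts. They stood at 27.2, 21.5 and 39.5 CPM in tissue pixels touching members, close to the member level at E12. In pixels beyond the second ring around members they stood at 18.1, 8.8 and 14.2 CPM. When Wt1 was left out of the rule, 2 germ cell genes were tested, with a median of -0.2. The pixels are therefore described here by their rule genes and as members.

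Genes of visceral and lateral plate mesenchyme followed: 4 of 17 tested were higher and 0 lower, with a median of 0.73. Gata6, a zinc-finger factor of visceral mesoderm, stood at 83.0, 112 and 40.2 CPM against 24.0, 37.8 and 30.2 (log2 fold change 1.07, SE 0.26, adjusted p = 0.00608). Nr2f2, a nuclear receptor of mesenchyme and veins, stood at 277, 540 and 263 CPM against 165, 194 and 182 (0.88, SE 0.15, adjusted p = 5.87e-06). Bmp4, a secreted signal, stood at 203, 182 and 114 CPM against 67.0, 64.4 and 80.1 (1.04, SE 0.20, adjusted p = 3.62e-05). Hand1, a factor of lateral mesoderm, also passed on 2, 9 and 4 counts (2.53, SE 0.68, adjusted p = 0.0157). So few counts could bring it past the filter through the members alone, and its place among the 4 is a description. In the epicardial and heart field list, 1 of 6 tested genes was higher: Gata5, at 129, 23.4 and 11.0 CPM against 15.9, 8.36 and 7.77, the first value being well above the others. Without E11 replicate 2, 0 of the 17 mesenchymal genes passed, and without E11 replicate 1 only 1 did. When the rule left out Wt1, 1 of 15 passed.

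Some signal, matrix and smooth muscle genes were higher as well. Of 12 tested genes of retinoic acid metabolism 2 were higher, Aldh1a2 and Rdh10, which acts one step before it (log2 fold change 1.29, SE 0.35, adjusted p = 0.0164), and the median of the list was 0.22. Of 16 growth factor and receptor genes, 4 were higher: Sfrp1, a secreted Wnt antagonist (0.74), the growth factor Igf1 (0.79), the receptor Pdgfra (0.62) and Dlk1, a membrane ligand related to Notch ligands (0.54, higher in 2 of 3 libraries). Of 13 matrix genes, Col1a1, Col1a2 and Col3a1 were higher, with log2 fold changes of 0.76, 0.75 and 0.64. Col3a1 stood at 646, 971 and 1450 CPM in members and at 392, 493 and 1050 CPM in other tissue. Of 6 smooth muscle genes, Tagln (0.94) and Actg2 (1.19) were higher. Without E11 replicate 2, 0 matrix genes passed, and without E12 6 did. In pixels below their library's median total, 4 of these genes had negative log2 fold changes: Tagln (-0.83), Actg2 (-0.45), Dlk1 (-0.07) and Col3a1 (-0.06). When the rule left out Osr1, 0 of the 6 smooth muscle genes passed, with a median of -0.04.

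By the rule for named genes, the largest changes outside the rule genes were in Zbtb7c, Bnc1, Rarres2, Adamts18, Aldh1a2, Shisa3, Pmp22, Gata5, Adamts9, Man1a, Shroom3 and Lsp1. The naming rule itself required each to be higher in members in all 3 libraries. Man1a stood at 73.8, 90.8 and 35.6 CPM against 7.06, 17.8 and 33.7, so its E12 values were close. Rarres2, which encodes the secreted protein chemerin, stood at 111, 36.3 and 18.3 CPM against 11.7, 5.62 and 9.99 (log2 fold change 2.02, SE 0.39, adjusted p = 8.21e-05). Zbtb7c, a zinc-finger gene, stood at 46.1, 15.6 and 21.0 CPM against 4.24, 2.74 and 6.11 (2.27, SE 0.52, adjusted p = 0.00154), on 5, 6 and 23 counts in members. Adamts18 and Adamts9 encode secreted metalloproteases. Adamts18 stood at 36.9, 46.7 and 51.1 CPM against 7.66, 11.4 and 16.1, with the first value resting on 4 counts. Adamts9 stood at 185, 314 and 124 CPM against 53.7, 60.2 and 89.7. Shroom3, an organiser of apical actin in epithelia, stood at 138, 59.7 and 20.1 CPM against 17.5, 25.6 and 12.6 (log2 fold change -0.89 in the shallower pixels). Shisa3, an inhibitor of Wnt and FGF receptors, stood at 27.7, 77.9 and 52.0 CPM against 13.3, 16.9 and 19.2, with the first value resting on 3 counts.

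**Figure D3:**
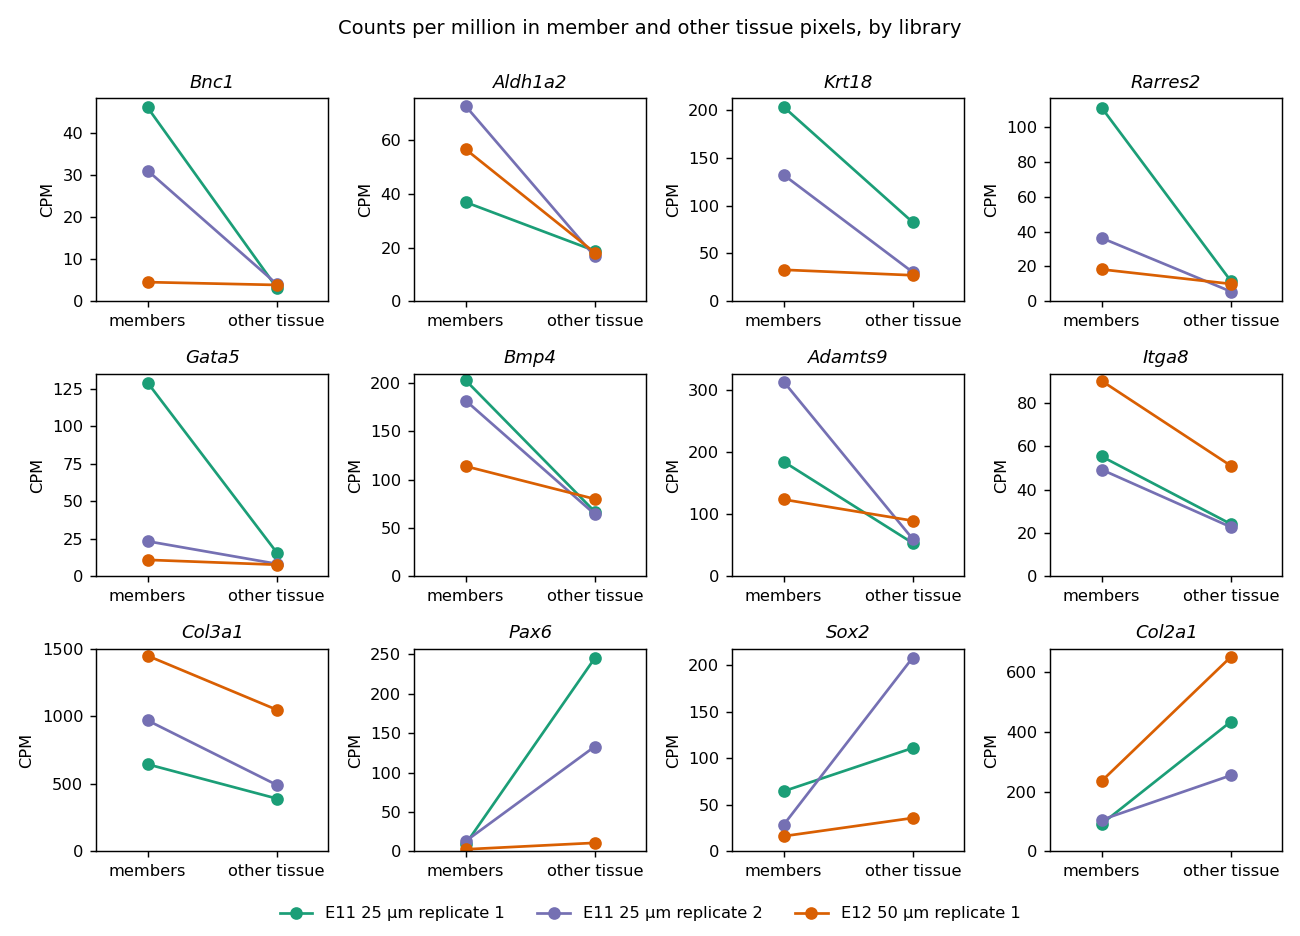
CPM of 12 genes in member and other tissue pixels, 1 line per library. Aldh1a2, Rarres2, Bmp4 and Itga8 fall from members to other tissue in all 3 libraries, and Pax6, Sox2 and Col2a1 rise in all 3.

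On the lower side, most genes of the neural lists passed. Of 8 tested neuron genes 7 were lower (median -1.01), and of 6 tested neural progenitor genes 5 were lower (median -1.75). Pax6, a factor of neural progenitors and eye, stood at 9.23, 13.0 and 2.74 CPM in members and 245, 133 and 10.9 CPM elsewhere (log2 fold change -3.38, SE 0.37, adjusted p = 2.32e-16). Sox2, of neural progenitors, stood at 64.6, 28.5 and 16.4 CPM against 111, 208 and 35.9, and Tubb3, a neuronal tubulin, at 46.1, 51.9 and 46.5 CPM against 88.7, 99.6 and 99.9. The other genes named by the rule gave almost no counts in members. Srrm3, a splicing factor gene of neurons, gave 0 counts where 12.8 would be expected at the level of the other pixels, which makes it at least 4.26-fold lower (floor of 3 counts over the group). Sall3 gave 3 counts where 54.6 would be expected, a ratio of 18.2 (95% counting interval 6.23 to 88.2), and Rfx4 3 where 41.5 would be, a ratio of 13.8 (4.73 to 67.0). Glra1, a glycine receptor subunit, gave 2 counts where 26.7 would be expected, a ratio of 13.3 (3.69 to 110.0). The others were Nhlh1, Zbtb16, Map7d2, Nmnat2 and Neurod4, with 1 to 3 counts in members, and Ppp1r17 and Scn9a. Without E11 replicate 2, 0 of the neuron genes and 1 of 5 tested neural progenitor genes passed.

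Cartilage and liver transcripts were lower too. Col2a1, the main collagen of cartilage, stood at 92.3, 106 and 236 CPM in members and at 435, 255 and 652 CPM in other tissue (log2 fold change -1.57, SE 0.17, adjusted p = 2.4e-17), and 2 of 6 tested cartilage genes passed. Of 7 tested liver genes 5 were lower, with a median of -0.91. Apoa1 and Ttr were lower in all 3 libraries, but Afp, Alb and Apoa2 only in 2 of 3. Afp, the fetal albumin-like protein, had lower values in E11 replicate 2 (527 against 1160 CPM) and at E12 (1080 against 2170) but not in E11 replicate 1 (849 against 700), and its log2 fold change was 0.1 when 1 rule gene count made a member. In E11 replicate 1 Alb stood at 64.6 CPM in members against 58.9, and Apoa2 at 240.0 against 209. No liver gene passed without E11 replicate 2, with DESeq2 or when the rule left out Osr1. Heart muscle genes did not pass in either direction (0 of 8, median -0.05), but this depended on Upk3b: when the rule left it out, 8 of 8 were lower, with a median of -1.64, against a median of 0.36 and 0 of 8 without Osr1. Of 11 tested posterior Hox genes 1, Hoxb9, was lower. No gene passed among 7 tested of endothelium, 6 of peripheral ganglion, 6 of gut and lung epithelium, 4 of surface epithelium, 4 of skeletal muscle and somite or 5 of macrophages.

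Tissue pixels touching a member at an edge or corner were compared with tissue pixels farther away. Neither class was chosen by its own rule gene counts beyond a limit of 1 in each pixel. Of 12801 genes tested, 143 were higher in touching pixels (1.12%) and 134 were lower (1.05%), and 1396 had an unadjusted p under 0.05. Wt1 itself was higher next to members, at 38.1, 41.9 and 27.6 CPM against 10.9, 10.3 and 13.2 (log2 fold change 1.61, SE 0.26, adjusted p = 0.00144), while Upk3b (1.61), Osr1 (1.10) and Tcf21 (1.76) did not pass, with adjusted p of 0.0859, 0.0792 and 0.0876. Aldh1a2 was higher at 43.6, 31.7 and 24.2 CPM against 15.7, 14.4 and 12.5 (1.17, SE 0.24, adjusted p = 0.0116), and Krt18 by 0.72 (adjusted p = 0.0263), which made 2 of 10 tested mesothelial genes.

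The pixels next to members also carried muscle and matrix transcripts. Of 8 heart muscle genes 4 were higher (Myh6, Tnnt2, Myl7 and Actn2; median 0.73), and Myl7, an atrial myosin light chain, stood at 994, 828 and 291 CPM against 548, 385 and 163. Of 6 smooth muscle genes 4 were higher (Acta2, Tagln, Myh11 and Cnn1), and of 13 matrix genes 6. Lower near members were 7 of 8 neuron genes, 4 of 6 cartilage genes and 3 of 10 posterior Hox genes, among them Hoxb9 (-1.71, SE 0.18, adjusted p = 2.66e-05). The genes named by the rule were Trac, Rhox5, Adamts18, Myrf and Nr1h5 on the higher side and Neurod4, Pou3f4, BC024139, Acan and St18 on the lower side. Myrf, a membrane-bound transcription factor gene, stood at 98.1, 70.5 and 25.3 CPM against 23.6, 16.8 and 12.5, with no overlap. Trac, the constant region of the T cell receptor alpha chain, rested on 47 counts next to members and 23 farther away. The number of genes called depended on each library: it was 37 without E11 replicate 1, 157 without E11 replicate 2 and 1268 without E12. It was 127 with DESeq2, 121 when only edges counted as touching, and 0 without the block.

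The summed level of each list by distance shows how the members sit among organs. The mesothelial list stood at 646, 527 and 348 CPM in members, 489, 326 and 259 in touching pixels, 370, 236 and 231 in the next ring and 243, 138 and 175 farther out, falling at each step in all 3 libraries. The visceral and lateral plate mesenchyme list fell at each step too, from 1060, 1680 and 882 CPM in members to 633, 809 and 572 farther out. Heart muscle transcripts peaked outside the members: in E11 replicate 2 they stood at 2330 CPM in members, 5590 in touching pixels, 7080 in the next ring and 1740 farther out. Liver transcripts likewise stood at 727, 3440, 4980 and 769 CPM in that library, and at 2060, 3680, 5150 and 3080 CPM at E12. Neuron transcripts were lowest in members or in the 2 rings and highest farther out, at 664, 976 and 1530 CPM in the 3 libraries. How far the presence of these organs beside the members bears on the genes called next to members was not tested.

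**Figure D4:**
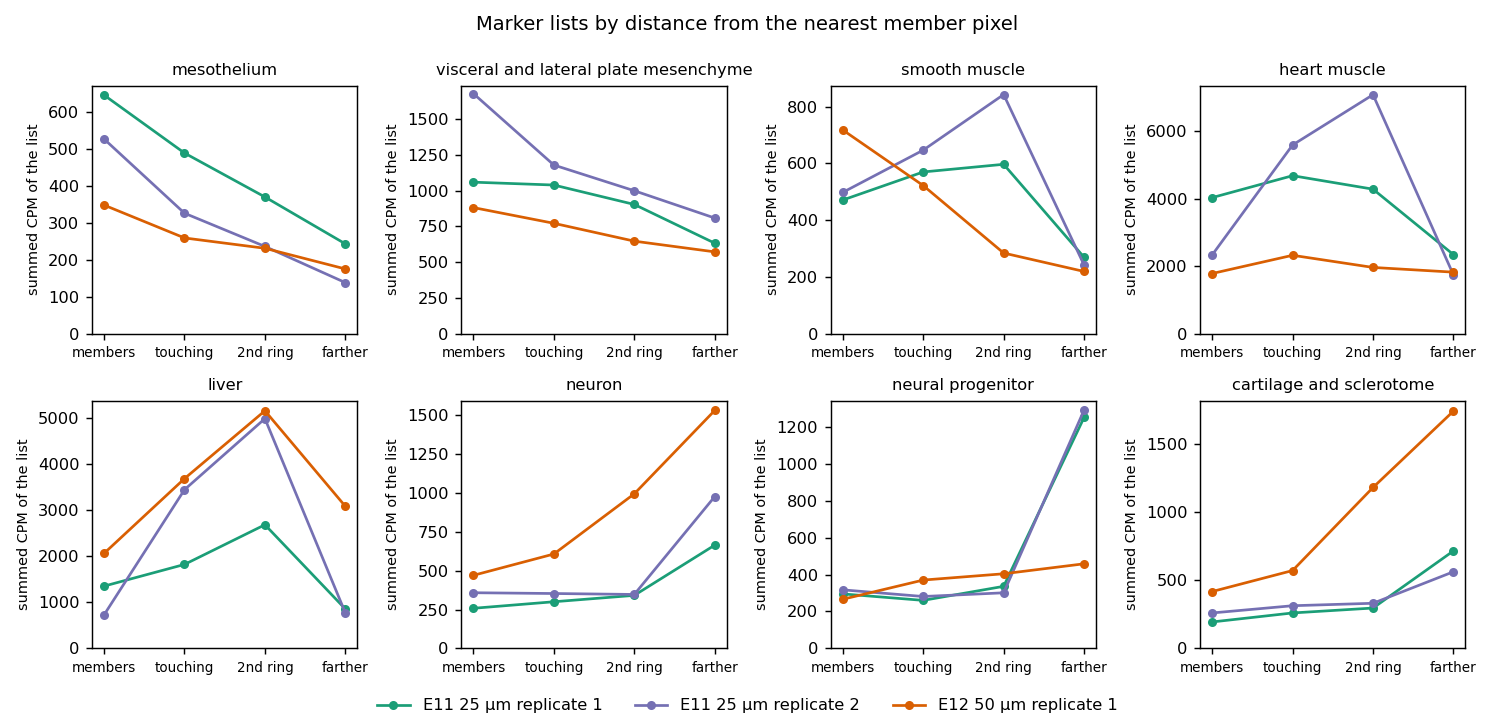
Summed CPM of 8 marker lists in members, in tissue pixels touching a member, in the next ring and farther out, 1 line per library. The mesothelial list and the visceral and lateral plate mesenchyme list fall at each step in all 3 libraries. Heart muscle and liver transcripts in E11 25 µm replicate 2 peak in the second ring, at 7080 and 4980 CPM.

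Members were also compared among themselves. Of 2614 genes tested, 12 were higher in lining-only members (0.459%, including the rule genes Wt1 and Upk3b) and 2 in mesenchyme-only members (0.0765%, Igf1 and the rule gene Osr1), and 109 had an unadjusted p under 0.05. Without TMM scaling the split was 12 and 10. Of the 16 mesothelial genes only 1 could be tested here, and it did not pass. The lining-only side held transcripts of heart muscle, blood and liver: 3 of 6 tested heart muscle genes (Myh7, Tnnt2 and Ttn), 4 of 7 red cell genes (Hba-a1, Hba-a2, Hbb-bs and Hbb-bt) and Alb, with Myl2 and Myl4, further heart myosin light chains. The paired globin genes are near-identical copies, between which reads could be split. Myh7, the beta myosin heavy chain, stood at 1730, 773 and 122 CPM in lining-only members and at 0, 129 and 24.9 CPM in mesenchyme-only members (log2 fold change 3.12, SE 0.38, adjusted p = 5.49e-08). Igf1 stood at 15.6, 60.3 and 179 CPM against 305, 96.5 and 530 (-1.58, SE 0.35, adjusted p = 0.00561). These values rest on 1, 11 and 53 counts against 7, 3 and 213, so mostly on E12. The next genes on the mesenchyme-only side by p, Auts2, Prrx1, Tcf4, Sparcl1 and Sema5a, had adjusted p of 0.0758 to 0.151 and did not pass. The E11 libraries held 8 and 7 mesenchyme-only pixels, no gene passed without E12 (45 at an unadjusted p under 0.05), 28 passed without E11 replicate 2, 2 without E11 replicate 1, and DESeq2 called 4. The part of neighbouring heart and blood in these values was not tested.

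The same rule was applied to the other 8 transcript libraries, which gave none of the members. The rule was chosen with earlier results of these data known. It was met by 0 to 79 tissue pixels, and 5 libraries with at least 20 were tested: E10 10 µm replicate 1 (50 pixels), E10 50 µm replicates 1, 2 and 3 (31, 23 and 34) and E11 10 µm replicate 2 (79). In the tested E10 sections Osr1 gave more counts than any other rule gene, with 147, 93, 62 and 105 counts in tissue against 25, 26, 36 and 32 of Wt1, whereas E11 10 µm replicate 2 held 283 counts of Wt1 and 39 of Osr1. Of 11420 genes tested, 23 were higher where the rule was met (0.201%, including the 4 rule genes) and 15 were lower (0.131%), with 970 at an unadjusted p under 0.05. The 96 genes other than rule genes that were higher in members included 87 tested in these libraries, and 82 of these (94.3%) changed in the same direction, where 47.6% of all genes did; 10 passed, among them Bmp4, Col1a2, Fbln2, Myrf and Sparc. Of the 102 genes lower in members 88 were tested and 83 (94.3%) were lower here too, against 52.4% of all genes; 11 passed, among them Pax6, Sox2 and Fabp7.

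Myrf stood at 14.1, 17.1, 12.0, 27.1 and 211 CPM where the rule was met and at 9.74, 4.85, 5.77, 4.12 and 84.3 elsewhere, in the order in which the libraries are listed above (log2 fold change 1.42, SE 0.31, adjusted p = 0.0201). Aldh1a2 had a log2 fold change of 1.28 and an adjusted p of 0.0562, and Tbx18 1.01 and 0.0682, so neither passed. Of 8 tested mesothelial genes 0 passed in these libraries, with a median of 0.49. The largest list medians outside the rule genes were 1.28 for smooth muscle (0 of 4 passed), 1.17 for heart muscle (0 of 8) and 1.11 for the epicardial and heart field list (1 of 6). Tbx20, a T-box factor of heart and epicardium, passed here (1.47, adjusted p = 0.0097) but not in members (-0.20). The rule for named genes gave Ghr, Myrf, Mical2, Nrp1 and Fbln2 on the higher side and Hoxb9, Srgap3, Ina, Kif21a and Sox2 on the lower side. That rule required the same direction in all 5 libraries. When 1 of the 5 libraries was dropped, in the same order, 97, 8, 7, 24 and 216 genes were called.

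**Figure D5:**
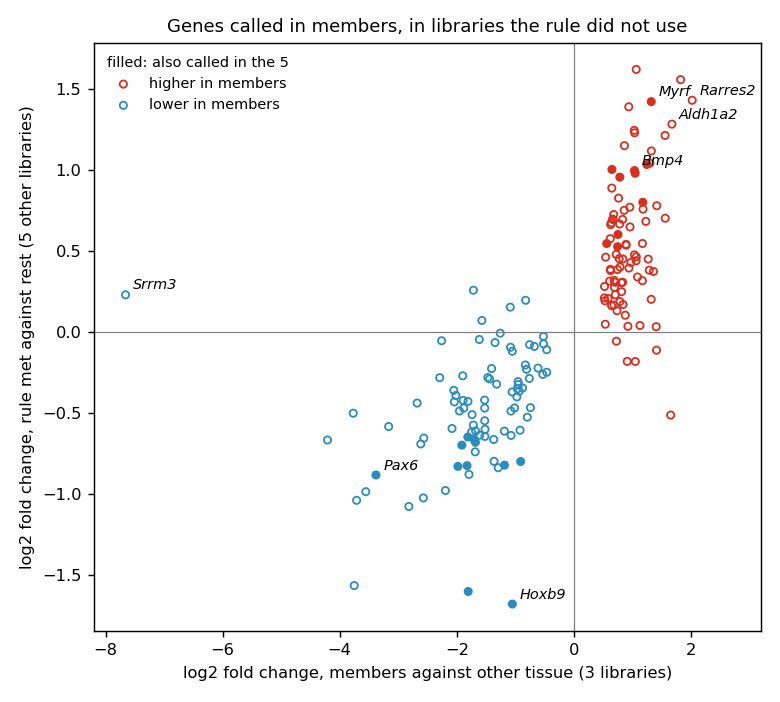
Log2 fold changes of genes called in members (x axis, 3 libraries) against log2 fold changes where the rule was met in 5 other libraries (y axis), rule genes left out. Of the 87 genes higher in members 82 lie above 0 on the y axis, and of the 88 lower genes 83 lie below it; the point at the far left is Srrm3, whose fitted value rests on 0 counts in members.

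The member effect was compared between E12 and E11 by an interaction term. Of 13015 genes, 16 passed (0.123%), 3 with a higher and 13 with a lower log2 fold change at E12, and 482 had an unadjusted p under 0.05. Tnc, the matrix protein tenascin C, stood at 166 and 189 CPM in E11 members against 33.3 and 33.2 in other tissue, but at 48.4 against 82.3 at E12 (difference of log2 fold changes -3.15, SE 0.48, adjusted p = 8.41e-07). Pmp22, a tetraspan membrane protein, stood at 249 and 278 CPM against 46.4 and 49.1 at E11 and at 100.0 against 79.6 at E12 (-2.07, SE 0.41, adjusted p = 0.00155). Adamts9 and Man1a, both named above, also had lower fold changes at E12 (differences of -1.66 and -2.50). The fold change was higher at E12 for Sall1, Ptprz1 and Gpm6b, whose values were below other tissue in E11 members and above it at E12. Each gave 0 counts in E11 replicate 1 members, which allows up to 27.7 CPM (floor of 3 counts). Other tissue there stood at 28.2, 16.3 and 49.4 CPM. A lower level in that library is thus shown for Gpm6b, barely for Sall1 and not for Ptprz1. Gpm6b, a membrane protein of neural cells, stood at 0 and 7.79 CPM in E11 members against 49.4 and 62.0, and at 42.9 against 36.5 at E12. Ptprz1, a phosphatase of neural cells, gave 0 counts in both E11 member classes and 37 at E12. DESeq2 called none of these differences (0 genes, 73 at an unadjusted p under 0.05), and without TMM scaling 50 genes passed. With 1 section at E12 these differences belong to that section, its stage or its pixel width, which cannot be told apart.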

How the data were processed

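Transcripts were counted in 11 libraries, of which the rule uses 3; 4 antibody tables were not used here. The authors deposited raw counts per gene symbol and pixel, with no normalization. The submitters' processing notes list CASAVA 1.8.2 and the human build GRCh38, with no role given. The aligner, the use of strand, the collapsing of duplicate molecules and the pixel filters are not given in the sources used here, so counts may include copies of 1 molecule, and intervals cover counting error only. GENCODE M21 and RefSeq were used for names, positions and promoters only. A barcode marks a grid position that is reused in every library.

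Counts were summed per library and pixel class, and pixels were never treated as replicates. The sums were tested with edgeR 4.0.16 (R 4.3.3, limma 3.58.1): a robust quasi-likelihood fit with TMM scaling, genes kept by filterByExpr, the library as a block, and two-sided p-values with Benjamini-Hochberg adjustment over every gene tested, at 0.05. Both sums of a block come from the same section, which is where the pairing comes from. With 3 libraries, 2 residual degrees of freedom remained (1 in the test of the difference at E12, 4 in the 5 other libraries). The scripts were tested on simulated counts. Alternatives included DESeq2 1.42.0, other scalings, filters, thresholds and depths, and leaving out each library.

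The members, the 23 lists and the tests were chosen with earlier results of these data known. Named genes are, in each direction, up to 12 called genes (5 in the other fits) with the largest change, the same direction in every library and at least 20 counts on the higher side, leaving out rule genes and symbols made of Gm and digits, ending in Rik or -ps with digits, or named for a clone; where fewer than 3 passed, the smallest p are given. The direction rule could not apply to the difference at E12. Some results are not reported here.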

Additional observations from a re-analysis of the deposited data

Results flagged for a closer look

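The 16 genes below were picked out because their difference between members and other tissue was not the same at E12 50 µm as at E11 25 µm, by edgeR's quasi-likelihood test of the interaction with Benjamini-Hochberg adjustment. The log2 fold change was lower at E12 for Tnc (adjusted p = 8.41e-07), Hbb-bt (2.35e-05), Runx1t1 (0.00138), Pmp22 (0.00155), Hbb-bs (0.00186), Nrk (0.00351), Unc5c (0.00619), Nfib (0.0104), Man1a (0.0208), Adamts9 (0.0213), Abcg2 (0.0213), Postn (0.0213) and Sv2a (0.0424). It was higher at E12 for Sall1 (0.0109), Ptprz1 (0.0109) and Gpm6b (0.0213), each with values below other tissue in E11 members and above it at E12. Their values in E11 replicate 1 members rest on 0 counts, which allows up to 27.7 CPM. Ptprz1, at 16.3 CPM in other tissue there, is thus not shown to be lower in that library. The adult beta globin gene Hbb-bs stood at 268 and 397 CPM in E11 members against 224 and 139 in other tissue, and at 5990 against 9500 CPM at E12. Postn, a matrix protein of mesenchyme, stood at 36.9 and 140.0 CPM against 21.0 and 34.0 at E11 and at 100.0 against 121 at E12. Sall1, a factor of kidney progenitors and neural tissue, gave 0 and 4 counts in E11 members, against 28.2 and 63.8 CPM in other tissue, and 19.2 against 8.7 CPM at E12. DESeq2 gave 0 calls for this difference, and the test has 1 residual degree of freedom.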

How the results depend on the processing

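Members against other tissue gave 202 calls, and 48 with DESeq2, 3 without the replicate block, 58 with at least 3 rule gene counts, 5 in shallower pixels, 73 and 117 when the rule left out Wt1 or Osr1 (added after seeing the data), and 10 to 208 leaving out 1 library. The cause was not tested. Leaving out E11 replicate 1, E11 replicate 2 or E12 removes 40, 75 or 190 of the 305 members, with 57, 10 or 208 calls.

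Pixels touching members gave 277 calls, and 127 with DESeq2, 482 with no filter on low counts, 0 without the block (364 at an unadjusted p under 0.05), 121 with 4 neighbours and 37 to 1268 leaving out 1 library. Lining-only against mesenchyme-only members gave 14, and 4 with DESeq2, 22 without TMM, 3 without the block and 0 to 28 leaving out 1 library. The 5 other libraries gave 38, and 253 with no filter, 1 without the block and 7 to 216 leaving out 1 library. The difference at E12 gave 16, and 0 with DESeq2 and 50 without TMM; 24 with no filter stayed within 1.5 times.

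For the rule genes left out in turn, leaving out 1 library gave log2 fold changes of 1.32 to 2.51 for Wt1, 0.92 to 2.1 for Upk3b, 1.57 to 2.18 for Tcf21 and -0.33 to 1.03 for Osr1; DESeq2 gave no adjusted p for Upk3b or Tcf21. With at least 3 counts, 15.8% of the edge neighbours listed for members in E11 25 µm replicate 2, repeats included, were members, against 27.0%. In the depth split, Actg2 (-0.45), Col3a1 (-0.06), Dlk1 (-0.07), Itga8 (-0.02), Shroom3 (-0.89) and Tagln (-0.83) changed sign in the shallower pixels. Actg2 did so too when Osr1 was left out of the rule (-0.03), as did Afp (0.1) and Apoa2 (0.01) with at least 1 count. Among the other values of named genes under single alternatives, 1181 stayed on the same side of the threshold with the same direction, 6 came to pass it and 640 kept the direction but no longer passed.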
